A study of Mus musculus with 12 samples.

Results

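Slc2a5, which encodes the fructose transporter GLUT5, lies on mouse chromosome 4 from 150119283 to 150144169 (GRCm38), and the genes described here are its neighbours within 10 Mb on either side. A gene was included when its GENCODE coordinates overlapped 140119283 to 160144169 and it had at least 10 counts in 3 or more libraries. Slc2a5 itself, Eno1 and Isg15 were left out. The rule kept 223 of 490 annotated genes of the window, out of 19123 genes that passed the same count rule in the table of 55421. Of these 223, 131 lay on the centromeric side and 92 on the telomeric side, where the last annotated gene of the chromosome ended at 156355905, so that side spans 6.212 Mb. They comprised 169 protein-coding genes, 27 long non-coding RNAs, 25 pseudogenes and 2 small RNAs. The rule used position and the counts in each library, and did not compare genotypes. With 3 libraries in a group, a gene could still enter through the counts of a single group. For 2 members the libraries with at least 10 counts were exactly the 3 of a single group.

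RNA was sequenced from sorted microglia, the brain's own macrophages, of mice labelled as male and 35 to 40 days old. The cells were kept in culture without oxygen and glucose (oxygen-glucose deprivation, OGD), which models ischaemia in a dish. The control mice carried the Cx3cr1EGFP reporter (WT below), and the knockout mice were Slc2a5-/-::Cx3cr1EGFP (KO below), so the reporter was common to all groups. Cells had 6 h of OGD and were taken at once (WT-OGD and KO-OGD) or after a further 24 h of recovery (WT-recovery and KO-recovery), with 3 libraries in each of the 4 groups. Whether the libraries of a group stem from different animals or cultures is not stated, so p-values measure only the spread between these libraries, which may be technical. Cells without OGD, the way in which the Slc2a5 allele was made and the strain background of either genotype are not given in the sources used here.

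Genes that lie near each other on a chromosome are inherited together more often than distant ones. In a mouse line that carries a targeted allele, the genes beside that allele therefore tend to come from the strain in which it was made, and for this reason the neighbours of a deleted gene are commonly read as a set of their own. The distal part of mouse chromosome 4 also holds a cluster of KRAB zinc finger genes, a family of DNA-binding repressors known for silencing retrotransposons, whose members are close copies of each other and differ between mouse strains.

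Total counts ran from 31509859 to 45347118 in the OGD libraries and from 9885259 to 19915479 in the recovery libraries, so low genes had the wider error after recovery. Slc2a5 had 45, 40 and 58 counts in WT-OGD against 17, 4 and 17 in KO-OGD (log2 fold change -1.75, SE 0.38, adjusted p = 0.0108), and 3 counts in all of WT-recovery against 1 in all of KO-recovery, where it could not check the labels. The 10 microglial markers had a summed level of 3110 to 4860 CPM (counts scaled to library size) across libraries, and none was at 0. Of these 10, P2ry12 and Fcrls were lower in KO after OGD (-0.57 and -0.49, adjusted p = 0.0405 and 0.0117), and Fcrls was higher after recovery (1.01, adjusted p = 1.27e-05). Markers of other cells moved with genotype in both directions. The 10 astrocyte markers summed to 129 to 186 CPM in WT-OGD against 55.0 to 76.3 CPM in KO-OGD, where 10 of 10 were called lower and none was at 0, and to 168 to 192 CPM against 81.7 to 121 CPM after recovery, where 7 were lower. Neuron markers summed to 23.0 to 35.3 against 7.46 to 13.5 CPM after OGD and to 77.4 to 92.8 against 16.1 to 28.8 CPM after recovery, with 3 of 9 lower each time. Oligodendrocyte lineage markers had 1 of 10 higher and 2 lower after OGD and 4 lower after recovery. Of the monocyte markers 1 of 3 was higher after OGD, and 1 was higher and 1 lower after recovery. After recovery 2 of 6 endothelial and mural, 2 of 5 border macrophage and 1 of 6 fibroblast markers were higher in KO, with none of these called after OGD. Of 5 sex-linked transcripts 1 was higher and 4 were lower in KO in both states, although all mice were labelled as male. The higher one was Xist, the RNA of the inactive X chromosome, at 159, 151 and 159 CPM in WT-OGD and 242, 231 and 244 CPM in KO-OGD. It had 0, 3 and 0 counts in WT-recovery against 354, 335 and 312 CPM in KO-recovery, so the WT groups of the 2 states differed too. The part of this in the genotype differences and in the interaction was not tested. KO-recovery libraries 1 and 3 stood apart, with 37.6 and 36.4 CPM of the skeletal muscle gene Acta1 against 0.980 in library 2. WT-recovery library 1 had the highest mitochondrial share of counts, 18.4% against 4.20% to 10.5% in the others, and a treatment label that named OGD without recovery, against its title. In bulk samples, fewer cells of a type and less RNA per cell cannot be told apart.

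After OGD, genes flanking Slc2a5 differed between KO and WT in both directions. Of 223, 215 had enough counts to be tested, and 15 rose and 31 fell in KO at an adjusted p below 0.05 by edgeR's quasi-likelihood test with Benjamini-Hochberg adjustment over all 18842 genes tested. These 46 are 21.4% of the members tested, against a background of 7.49% of all genes. Rises made up 6.98% of members and 0.966% of all genes, and falls 14.4% and 6.52%. At least 2-fold changes were called for 7 rises, among them the zinc finger genes Zfp985 and Zfp990 and the membrane protein gene Clstn1, and for 19 falls, among them Pdpn, Disp3 and Zfp984. The median log2 fold change of the members was 0.00 (all genes -0.01), and its median size without sign was 0.21 (all genes 0.14). All 3 libraries of a genotype lay beyond all 3 of the other in 93 members, or 43.3%, against 30.4% of all genes. Without WT-OGD library 3, 9 of 213 members tested rose and 19 fell, where 2.8% of all genes were called in either direction. Without KO-OGD library 1, 9 of 214 rose and 21 fell, where 3.98% of all genes were called.

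After recovery 38 members rose and 43 fell in KO, together 37.7% of those tested, against a background of 22.2%. Rises were 17.7% of members against 10.1% of all genes, and falls 20.0% against 12%. At least 2-fold changes were called for 13 rises and 22 falls. The median log2 fold change was -0.02 (all genes 0.01) and its median size 0.35 (all genes 0.27). The genotypes did not overlap in 106 members, or 49.3%, against 33.5% of all genes.

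The same members were often called in the same direction in both states. There were 32 such members, 12 higher and 20 lower in KO, or 14.9% of those tested against 3.58% of all genes. Without WT-OGD library 3 there were 21 such members, and 1.5% of all genes were called in this way. Of the 46 called after OGD, 69.6% were called in the same direction after recovery, and of the 81 called after recovery, 39.5% were so after OGD. Over all genes these shares were 47.8% and 16.2%. A further 13 members were called after OGD alone, 48 after recovery alone and 121 in neither, and the zinc finger gene Zfp992 was called in opposite directions. On the rest of chromosome 4, 859 genes were tested, of which 7.45% were called after OGD, 21.7% after recovery and 2.79% in the same direction in both.

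**Figure D1:**
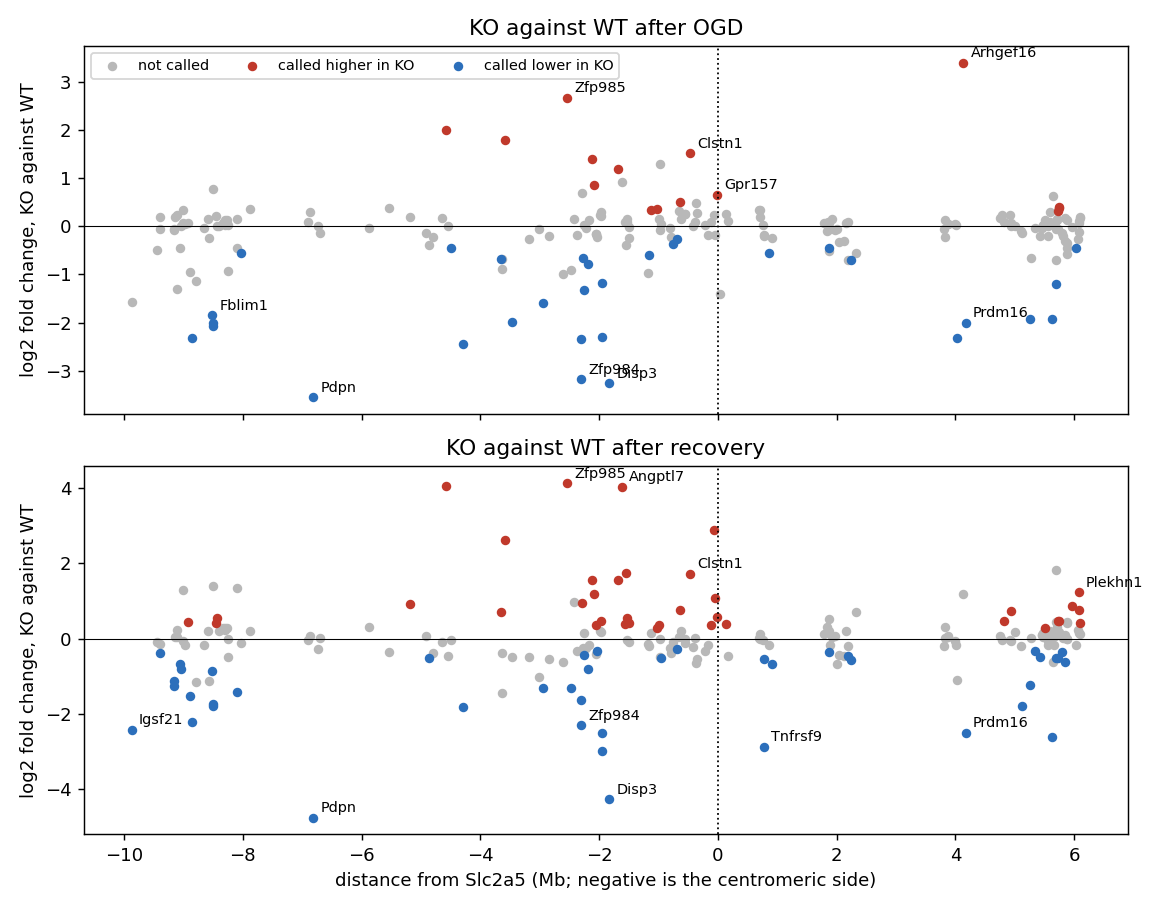
Log2 fold change of KO against WT (vertical axis) by distance of each tested flanking gene from Slc2a5 in Mb (horizontal axis; dotted line, Slc2a5), after OGD (top) and after recovery (bottom); red and blue points were called higher and lower at an adjusted p below 0.05, and Car6 is left out of the lower panel because WT-recovery held no count of it. Called genes of both directions lie among uncalled ones on either side, with the 1 Mb to 5 Mb on the centromeric side the most filled after OGD.

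The called members were not spread evenly along the window. On the centromeric side 33 of 124 tested members (26.6%) were called after OGD and 54 (43.5%) after recovery, and on the telomeric side 13 of 91 (14.3%) and 27 (29.7%). Calls in the same direction in both states made up 20.2% and 7.69%. After OGD the share was 20.8% within 1 Mb on the centromeric side, 40.0% from 1 to 2.5 Mb, 42.1% from 2.5 to 5 Mb and 13% beyond 5 Mb, where all 6 called members were lower in KO. Most calls over all genes after OGD were lower too, 1229 of 1411. On the telomeric side the share called after OGD was 9.09% (1 of 11), 11.8%, 18.8% and 14.9% in the same bins, against 7.49% of all genes. After recovery the highest share was again on the centromeric side, 60% from 1 to 2.5 Mb, with 12 rises and 9 falls. The other centromeric bins had 37.5%, 36.8% and 37.0% going outward. On the telomeric side the share after recovery was 45.5%, 17.6%, 18.8% and 34.0%. The telomeric bins from 1 to 5 Mb thus lay below the 22.2% of all genes. The difference between sides was not tested.

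The size of the change did not rise or fall steadily with distance. The median size of the log2 fold change after OGD was 0.23, 0.35, 0.67 and 0.19 over the 4 centromeric bins going outward, and 0.24, 0.09, 0.10 and 0.14 over the telomeric ones. After recovery it was 0.34, 0.41, 0.54 and 0.37, and 0.38, 0.32, 0.12 and 0.24. Spearman's rho between distance and the size of the log2 fold change was -0.0334 over 124 centromeric and -0.0136 over 91 telomeric members after OGD, and 0.0556 and 0.00844 after recovery, a description over genes that share their libraries and one that cannot show a peak in the middle bins. Neighbours in order along the chromosome had the same sign in 62.1% of 214 pairs after OGD and in 55.6% after recovery. Such a share was not computed for other genes, and pairs whose exons overlap were not set aside. The nearest member to the centromeric edge was Igsf21 at 9.87 Mb, and the nearest gene outside it was Klhdc7a at 10.2 Mb, with means of 0.639 CPM in WT-OGD, 0.0948 in KO-OGD, 0.186 in WT-recovery and 0.171 in KO-recovery. At the count threshold, 8 members reached 10 counts in exactly 3 libraries and 11 genes of the window did so in exactly 2. The 8 members not tested were Hspb7, Tmem51os1, Gm13082, Gm13234, Gm13141, Nppa, Gm13093 and Gm47252.

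**Figure D2:**
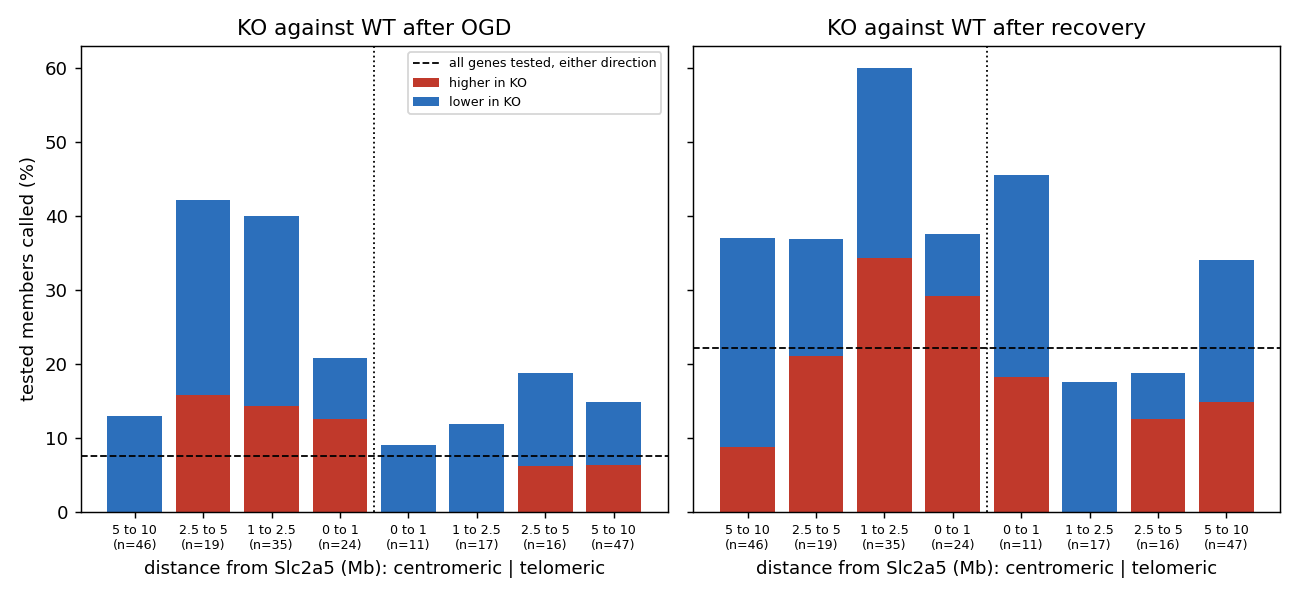
Share of tested flanking genes called higher (red) or lower (blue) in KO, in percent, by distance from Slc2a5 in Mb, after OGD (left) and after recovery (right); n is the number tested in each bin, the dotted line marks Slc2a5, and the dashed line marks the share called over all genes tested. The bins from 1 to 5 Mb on the centromeric side reach 40.0% and 42.1% after OGD, and the bin from 1 to 2.5 Mb reaches 60% after recovery.

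Most calls were of protein-coding genes, which were also most of the members tested. Of 167 tested, 13 rose and 26 fell after OGD (23.4%, against 8.84% of all protein-coding genes), and 33 rose and 37 fell after recovery (41.9% against 24.9%). Of 24 long non-coding RNAs 2 rose and 4 fell after OGD and 3 and 5 after recovery (25% and 33.3%, against 4.49% and 16.4%). Of 22 pseudogenes 1 fell after OGD, while 2 rose and 1 fell after recovery (4.55% and 13.6%, against 1.7% and 10.0%). Counting of reads over several genes or places is not described in the sources used here, and 68 members have exons that overlap another gene. Among the 119 tested members with no such overlap and with under 10% of their 50-base words in any other gene's transcripts, 7 rose and 12 fell after OGD (16%), 24 rose and 26 fell after recovery (42.0%), and 10.9% were called in the same direction in both.

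Rises in both states at moderate to high counts included those of Clstn1, Clcn6 and Gpr157, none of which shares more than 5% of its sequence words with another gene. Clstn1 (149586468 to 149648899, 470 kb from Slc2a5) encodes calsyntenin 1, a membrane protein of the cadherin superfamily that links cargo vesicles to kinesin. Its level was 34.3, 37.2 and 43.9 CPM in WT-OGD against 113, 113 and 105 CPM in KO-OGD, and 56.2, 41.1 and 40.1 CPM in WT-recovery against 155, 175 and 123 CPM in KO-recovery. Every KO library lay above every WT library in both states. The log2 fold changes were 1.52 (SE 0.14, adjusted p = 2.29e-05) and 1.73 (SE 0.15, adjusted p = 3.15e-06).

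Clcn6 (148004259 to 148038821), a chloride-proton exchanger of late endosomes, stood at 28.1 ± 1.17 CPM in WT-OGD against 51.1 ± 1.29 CPM in KO-OGD (SD, n = 3), and at 18.3 ± 0.531 and 41.8 ± 6.96 CPM after recovery. The log2 fold changes were 0.86 (SE 0.10, adjusted p = 1.15e-04) and 1.19 (SE 0.11, adjusted p = 4.45e-06). Gpr157, an orphan G protein-coupled receptor gene, is the nearest member of all, with its end 13.4 kb from Slc2a5 (150087365 to 150105927). It had 81.4, 87.1 and 76.6 CPM in WT-OGD against 125, 137 and 124 CPM in KO-OGD, and 14.8, 18.4 and 19.6 CPM against 25.3, 24.3 and 30.1 CPM after recovery. All KO libraries were above those of WT of the same state, although the level in both genotypes was lower after recovery. The log2 fold changes were 0.66 (SE 0.10, adjusted p = 8.9e-04) and 0.58 (SE 0.11, adjusted p = 0.00188).

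**Figure D3:**
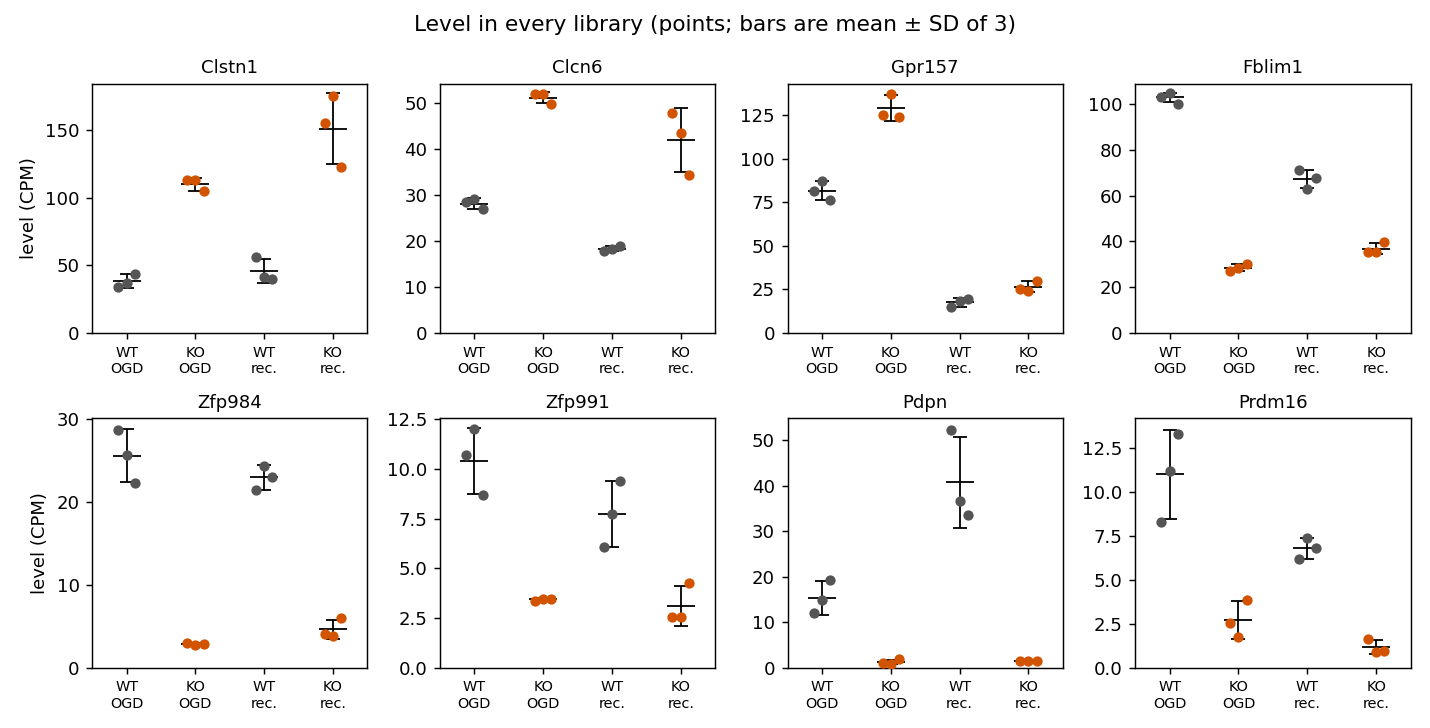
Level in CPM (vertical axis, from 0) of 8 flanking genes in every library by group; points are libraries, grey for WT and orange for KO, and bars are the mean ± SD of 3. Clstn1, Clcn6 and Gpr157 are higher in all KO libraries of both states, and Fblim1, Zfp984, Zfp991, Pdpn and Prdm16 are lower in all of them.

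The promoters of these 3 genes are shown because the genes moved in the same direction in both states. Each is the 250 bases before the transcription start (RefSeq, GRCm38.p6), written 5′ to 3′ on the gene's strand, and capitals mark the GC box GGGCGG, the CCAAT box, the TATA box TATAAA and the core ACGTG on either strand.
Clstn1 (chr4:149586218-149586467, plus strand): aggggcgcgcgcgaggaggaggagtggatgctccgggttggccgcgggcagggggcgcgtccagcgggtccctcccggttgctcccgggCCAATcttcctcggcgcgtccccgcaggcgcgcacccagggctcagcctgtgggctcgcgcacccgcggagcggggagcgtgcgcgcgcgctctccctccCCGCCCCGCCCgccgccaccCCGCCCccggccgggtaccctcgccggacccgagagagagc
Clcn6 (chr4:148038814-148039063, minus strand): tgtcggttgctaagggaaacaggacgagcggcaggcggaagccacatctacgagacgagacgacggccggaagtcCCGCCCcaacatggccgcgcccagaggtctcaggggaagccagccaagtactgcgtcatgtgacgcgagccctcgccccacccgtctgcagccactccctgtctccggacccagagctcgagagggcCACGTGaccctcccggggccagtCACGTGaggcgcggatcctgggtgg
Gpr157 (chr4:150087253-150087502, plus strand): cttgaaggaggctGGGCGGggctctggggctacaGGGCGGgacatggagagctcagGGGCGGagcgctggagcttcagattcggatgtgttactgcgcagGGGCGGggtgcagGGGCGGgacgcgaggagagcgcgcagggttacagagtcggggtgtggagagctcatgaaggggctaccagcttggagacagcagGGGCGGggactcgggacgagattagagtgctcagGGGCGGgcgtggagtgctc
The Clstn1 promoter was 80.0% G and C, against a median of 52.4% over 32851 promoter entries, and held 3 GC boxes, of which 2 overlap, and 1 CCAAT box. That of Clcn6 was 67.6% G and C, with 1 GC box and 4 matches to ACGTG, which are palindromic pairs read on both strands. The Gpr157 promoter was 67.2% G and C and held 7 GC boxes. Its window ends at the RefSeq start, which lies inside the gene by the GENCODE coordinates given above. Part of these boxes thus falls within the gene as annotated by GENCODE. The Clcn6 window overlaps its GENCODE gene too, by a few bases. Of all entries 32.7% held GGGCGG, 33.8% CCAAT, 12.4% TATAAA and 16.6% ACGTG in a window of this length. TATAAA was in none of the 3. No motif was held by all 3 except GGGCGG. Identity between any pair of the 3 was 41.9% to 44.6%.

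The other members higher in both states changed less or had low counts. Nmnat1, a nuclear enzyme of NAD synthesis, rose by log2 fold changes of 0.50 (adjusted p = 0.0353) and 0.75 (adjusted p = 0.00234), but the call after OGD was lost when any of the 6 OGD libraries or WT-recovery library 3 was left out (adjusted p 0.0505 to 0.156 over those). Pex14, part of the import machinery of peroxisomes, rose by 0.35 and 0.29 (adjusted p = 0.0118 and 0.023), and shares 25.2% of its words, since Gm17029 overlaps it on the other strand. Its calls were lost without KO-OGD library 1 (adjusted p = 0.0536), and after recovery without WT-recovery library 1 or 2 or KO-recovery library 2 or 3 (0.0582 to 0.0825). Ints11, the catalytic subunit of the Integrator complex, and Pusl1, a pseudouridine synthase-like gene, overlap each other on opposite strands. They rose by 0.31 and 0.39 after OGD (adjusted p = 0.0462 and 0.0293) and by 0.48 and 0.46 after recovery (adjusted p = 0.00192 and 0.00707). Reads in the part they share (15.1% of the words of Ints11 and 20.9% of those of Pusl1) cannot be told apart without strand. The long non-coding RNA Gm13054, which overlaps the natriuretic peptide gene Nppa, went from 0.374 to 0.620 CPM in WT-OGD to 0.920 to 1.45 CPM in KO-OGD (log2 fold change 1.39, adjusted p = 0.00668) and rose by 1.55 after recovery (adjusted p = 0.0123). The calls of Ints11 and Pusl1 after OGD were both lost without WT-OGD library 1, 2 or 3 or KO-OGD library 1 or 3, with an adjusted p of 0.0929 to 0.229 for Ints11 and 0.0576 to 0.135 for Pusl1. Those of Gm13054 ended without WT-OGD library 3 (adjusted p = 0.0584), and after recovery without WT-recovery library 2 (0.0632) or 3 (0.0504).

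Among members lower in both states, Fblim1 had the smallest adjusted p after OGD. It encodes migfilin, an adaptor that joins filamin to integrin adhesions, and lies 8.51 Mb away on the centromeric side (141576062 to 141606096). It had 103, 105 and 100 CPM in WT-OGD against 27.0, 28.3 and 30.1 CPM in KO-OGD, and 71.2, 63.1 and 67.7 CPM against 35.5, 35.4 and 39.8 CPM after recovery. The genotypes did not overlap in either state. The log2 fold changes were -1.85 (SE 0.08, adjusted p = 9.84e-10) and -0.87 (SE 0.08, adjusted p = 4.73e-06), so the KO library levels were 3.60-fold and 1.82-fold lower. Pdpn (143267431 to 143299564), a mucin-type membrane glycoprotein also used as a marker of lymphatic vessels, was lower by more, at 12, 14.8 and 19.3 CPM in WT-OGD against 1.14, 0.920 and 1.83 CPM in KO-OGD. After recovery it had 52.2, 36.6 and 33.5 CPM in WT and 1.54, 1.39 and 1.5 CPM in KO. Its level was thus higher after recovery in WT, but similar in both KO groups, and the difference of the genotype effects between states did not pass (adjusted p = 0.0967).

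Several of the large falls were in genes of low to moderate level. Disp3, a membrane protein with a sterol-sensing domain, had 0.854, 1.89 and 2.10 CPM in WT-OGD against 0.213, 0.131 and 0.137 CPM in KO-OGD. After recovery it had 17.1, 19.3 and 17.1 CPM in WT and 0.892, 1.55 and 0.482 CPM in KO (log2 fold changes -3.26 and -4.28, adjusted p = 3.77e-04 and 1.61e-06). Beside it lie the F-box genes Fbxo44 and Fbxo2, whose products select proteins for ubiquitination, that of Fbxo2 by binding their sugar chains. Fbxo44 had 5.45 ± 0.985 CPM in WT-OGD against 1.10 ± 0.231 CPM in KO-OGD (SD, n = 3; log2 fold change -2.29, adjusted p = 7.02e-05), and 5.76 ± 0.655 against 1.03 ± 0.471 CPM after recovery (-2.51, adjusted p = 4.36e-05). Fbxo2 had 2.80 ± 0.282 against 1.24 ± 0.304 CPM after OGD (-1.17, adjusted p = 0.0192) and 23.3 ± 3.52 against 3.01 ± 1.40 CPM after recovery (-2.98, adjusted p = 5.15e-06). The Fbxo2 call after OGD was lost without WT-OGD library 2 or 3 or KO-OGD library 1 or 2 (adjusted p = 0.0812, 0.0880, 0.0967 and 0.0923), and with the astrocyte-marker covariate described below the value turned to 0.69 (adjusted p = 0.574).

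Prdm16 (154316125 to 154636873, 4.17 Mb away on the telomeric side), a transcription regulator known from brown fat and neural stem cells, had 8.29, 11.2 and 13.3 CPM in WT-OGD against 2.56, 1.74 and 3.88 CPM in KO-OGD. After recovery it had 6.17, 7.39 and 6.80 CPM against 1.64, 0.898 and 0.964 CPM. The groups did not overlap in either state, and the log2 fold changes were -2.0 and -2.5 (adjusted p = 2.91e-04 and 1.17e-04). Plod1, a lysyl hydroxylase of collagen synthesis, fell by 0.79 and 0.82 on the log2 scale (adjusted p = 0.00211 and 6.53e-04), the latter 0.53 without KO-recovery libraries 1 and 3. Kcnab2, a beta subunit of voltage-gated potassium channels, fell by 0.69 and 0.58 (adjusted p = 4.12e-04 and 4.85e-04). Klhl21, an adaptor of a cullin ubiquitin ligase, fell by 0.44 and 0.35 (adjusted p = 0.0126 and 0.0327), the first lost without WT-OGD library 2 or 3 or KO-OGD library 2 (0.0599 to 0.0854) and the second without WT-recovery library 3 or any KO-recovery library (0.0551 to 0.157). The transmembrane gene Tmem82 fell by 2.01 and 1.75 (adjusted p = 8.01e-06 and 8.31e-04), and AI507597, which overlaps it and shares 84.1% of its words with it or others, fell by 2.07 and 1.80, the latter lost without KO-recovery libraries 1 and 3 (0.143). Vwa1, a matrix protein gene, fell by 1.93 and 2.61 (adjusted p = 0.00822 and 0.00219), the first lost without WT-OGD library 3 (0.0780) or KO-OGD library 1 (0.0564).

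The exchange factor gene Arhgef19 fell by 2.32 and 2.21 (adjusted p = 0.0115 and 0.0404) from at most 1.18 CPM in any WT library. The first call was lost without WT-OGD library 2 (0.0549) or 3 (0.0818), and the second without any single recovery library other than KO-recovery 2 (0.0696 to 0.159), and without WT-OGD library 2 or 3 or KO-OGD library 3 (0.0516 to 0.0569). The long non-coding RNA 5830444B04Rik, which overlaps Cfap74, fell by 1.93 and 1.24 (adjusted p = 0.00399 and 0.0302), and the second call was lost without WT-recovery library 2 or 3 or KO-recovery library 3 (0.0697, 0.136 and 0.0853). Ube4b, which extends ubiquitin chains, fell by 0.27 in both states (adjusted p = 0.0338 and 0.0207). The first call was lost without WT-OGD library 1, 2 or 3, KO-OGD library 1 or 3 or WT-recovery library 2 (0.0518 to 0.161), and the second without WT-recovery library 3 (0.0777) or KO-recovery library 1 (0.101).

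The astrocyte markers given above moved in the same direction as these falls. The log2 of the summed level of these markers was used as a covariate. It did not overlap between genotypes in either state, so it is not separable from genotype in either. With it, 37 of 18842 genes were called after OGD at all and 32 in the same direction in both states. Of those 32 genes 7 were flanking members, among them Fblim1, Znf41-ps, Zfp991, Zfp984, Gm20707 and Clstn1. These 7 were called in both states under all 23 alternative settings. The calls of the other 25 after OGD were lost with this covariate. The value of 11 of them shrank by over 1.5 times, namely Disp3 (-0.66), Prdm16 (-0.21), Plod1 (-0.20), Fbxo44 (-0.86), Arhgef19 (-0.52), Vwa1 (-0.55), Gpr157 (0.22), Zfp990 (0.74), Pdpn (-1.91), Miip (-0.52) and Pex14 (0.16), and that of Fbxo2 turned. The values of 8 stayed within 1.5 times, namely Clcn6 (1.08), Zfp985 (2.14), Tmem82 (-1.59), AI507597 (-1.51), 5830444B04Rik (-1.91), Gm13054 (1.40), Klhl21 (-0.45) and Kcnab2 (-1.01). Those of 5 grew by more, namely Zfp981 (3.23), Nmnat1 (0.96), Ints11 (0.68), Pusl1 (0.87) and Ube4b (-0.56). After recovery the calls of Disp3 (-2.72), Prdm16 (-1.38), Fbxo44 (-1.65) and Fbxo2 (-1.85) held with smaller values, and those of Plod1 (-0.47), Gpr157 (0.30), Arhgef19 (-1.12) and Pex14 (0.17) were lost. Of members called in 1 state and described below, Megf6 (-1.05), Casz1 (-0.34) and Per3 (-0.06) after OGD and Aurkaip1 (-0.23) after recovery shrank by over 1.5 times and lost their calls too. The part of other cells in these results was not tested beyond that.

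The cluster of zinc finger genes lies 2.27 to 4.58 Mb from Slc2a5 on the centromeric side, from 145510759 to 147848366. It changed in both directions. Of 11 genes named Zfp, 3 rose and 5 fell after OGD, and 4 rose and 3 fell after recovery. In the stretch from the first to the last of them 11 of 22 tested members were called after OGD (50%) and 10 after recovery (45.5%). Among the 193 tested members outside it the shares were 18.1% and 36.8%, with 13% called in the same direction in both.

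Zfp984 had the largest fall of these 11 genes in both states. It stood at 28.7, 25.7 and 22.3 CPM in WT-OGD against 2.94, 2.73 and 2.84 CPM in KO-OGD, and at 21.5, 24.4 and 23.0 CPM against 4.07, 3.84 and 6.00 CPM after recovery. All KO libraries lay far below those of WT, and the log2 fold changes were -3.17 (SE 0.15, adjusted p = 2.34e-09) and -2.30 (SE 0.15, adjusted p = 2.16e-07). Gm20707, a long non-coding RNA on the same strand that overlaps it, fell by 2.35 and 1.63 and is uncertain as a separate gene. Zfp991 fell by 1.60 and 1.31 (adjusted p = 1.58e-04 and 6.74e-04), and the pseudogene Znf41-ps, 82.8% of whose words occur in Zfp991, by 2.44 and 1.83. Zfp993 (86.8% shared words) fell by 1.99 after OGD (adjusted p = 0.00424) and stood at -0.50 after recovery (adjusted p = 0.437).

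Against these, 3 genes rose from near the detection limit. Zfp985 had 0.317, 0.148 and 0.104 CPM in WT-OGD against 0.947, 1.25 and 1.48 CPM in KO-OGD (log2 fold change 2.67, adjusted p = 0.00138). After recovery it had 3 counts in the WT group and 73 in the KO group, a ratio of 18.4 per library size (exact 95% interval 6.06 to 91.3, counting error only; adjusted p = 5.87e-04 in the fit). Zfp990 had 0.334 ± 0.133 CPM in WT-OGD against 1.35 ± 0.0661 CPM in KO-OGD (SD, n = 3; log2 fold change 2.00, adjusted p = 0.00126), and 0.215 ± 0.0876 against 3.52 ± 1.07 CPM after recovery (4.07, adjusted p = 1.21e-05). Zfp981 rose by 1.80 after OGD (adjusted p = 0.0466), and had 3 against 25 counts after recovery (ratio 6.31, interval 1.92 to 32.6; adjusted p = 0.0375 in the fit). Its call after OGD was lost without any single OGD library (0.0641 to 0.228) or without WT-recovery library 1 or 2 or KO-recovery library 1 (0.0505 to 0.0661), and after recovery without WT-recovery library 1 or 2 or KO-recovery library 1 or 2 (0.0821 to 0.172).

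Zfp992 changed direction between states. It had 9.10, 11.5 and 8.54 CPM in WT-OGD against 5.42, 6.14 and 6.78 CPM in KO-OGD, but 5.59, 5.86 and 4.73 CPM in WT-recovery and 7.63, 9.55 and 9.32 CPM in KO-recovery. KO libraries were all lower after OGD and all higher after recovery (log2 fold changes -0.67 and 0.70, adjusted p = 0.00976 and 0.00664). The interaction was 1.37 (SE 0.22, adjusted p = 0.00253), and the call after OGD was lost without WT-OGD library 2 (0.0804) or KO-OGD library 1 (0.0623). Zfp933 fell after OGD (-0.65, adjusted p = 0.0302), a call lost without WT-OGD library 1 or 3 or KO-OGD library 1 or 3 (0.0997 to 0.154). Zfp979 fell after recovery (-1.31, adjusted p = 0.0113), a call lost without WT-recovery library 2 (0.0694) or KO-recovery library 1 (0.0571). Zfp534 stood at 0.15 and 0.96 and Zfp982 at -0.98 and -0.61 without passing. Reads of this family may be split between copies, since Zfp984 shares 54.5% of its words with other genes (46.9% with Gm13212), Zfp991 82.2%, Zfp992 43.0%, Zfp981 40.0%, Zfp990 29.1% and Zfp985 15.9%.

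**Figure D4:**
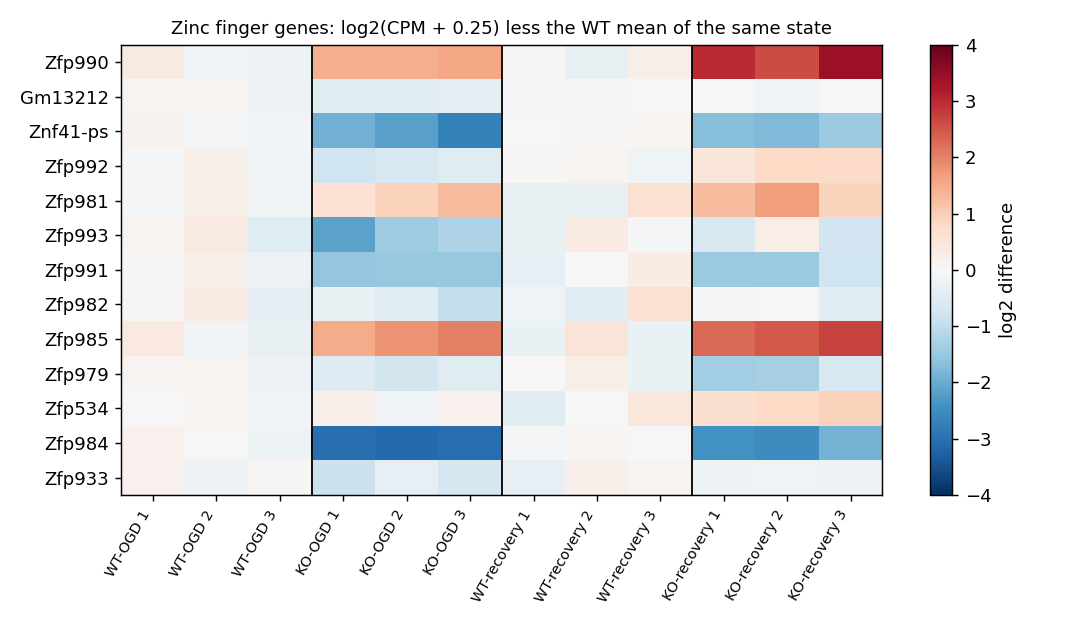
Zinc finger genes of the cluster in chromosome order (rows) and the 12 libraries (columns), coloured by log2(CPM + 0.25) less the WT mean of the same state, from -4 (blue) to 4 (red). Zfp990 and Zfp985 are red in all KO libraries, Zfp984, Zfp991 and Znf41-ps blue in all of them, and Zfp992 is blue after OGD and red after recovery.

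The promoters of Zfp984 and Zfp985 are shown because these genes of the cluster moved in opposite directions (250 bases, RefSeq GRCm38.p6, capitals as above).
Zfp984 (chr4:147809789-147810038, minus strand): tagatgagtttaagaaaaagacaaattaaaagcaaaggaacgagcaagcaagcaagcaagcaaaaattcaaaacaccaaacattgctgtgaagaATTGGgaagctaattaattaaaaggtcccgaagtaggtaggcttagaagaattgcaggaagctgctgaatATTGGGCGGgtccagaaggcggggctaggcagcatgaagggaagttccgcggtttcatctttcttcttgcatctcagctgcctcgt
Zfp985 (chr4:147553027-147553276, plus strand): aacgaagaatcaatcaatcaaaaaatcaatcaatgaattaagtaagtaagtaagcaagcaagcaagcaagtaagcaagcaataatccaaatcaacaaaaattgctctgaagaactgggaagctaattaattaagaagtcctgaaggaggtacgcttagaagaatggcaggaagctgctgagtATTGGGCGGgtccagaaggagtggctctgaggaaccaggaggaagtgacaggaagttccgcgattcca
They were 67.3% identical over their alignment. Both held 1 GC box, which overlaps a CCAAT box on the other strand, and Zfp984 held 1 further CCAAT match. They were 43.6% and 41.6% G and C.

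The 8 tested members nearest to Slc2a5 on each side did not change as a block. On the centromeric side Gpr157 rose in both states (above). The long non-coding RNA Gm37795, which overlaps Mir34a, had 1.37, 2.93 and 2.81 CPM in WT-recovery and 5.35, 3.76 and 6.37 CPM in KO-recovery (log2 fold change 1.08, adjusted p = 0.00547), and stood at -0.18 after OGD (adjusted p = 0.714). Its call was lost without KO-recovery libraries 1 and 3 (0.60, adjusted p = 0.231). Gm13067, 62.3 kb away, had 0.114, 0.122 and 0.0740 CPM in WT-recovery and 0.595, 0.735 and 1.07 CPM in KO-recovery (2.90, adjusted p = 0.00113). H6pd, which starts the pentose phosphate route in the endoplasmic reticulum, rose by 0.35 after recovery (adjusted p = 0.0257), a call lost without WT-recovery library 2 or 3 or KO-recovery library 2 (0.116, 0.104 and 0.0924). Spsb1, Gm13070, Slc25a33 and Gm13068 passed in neither state, with values from -0.66 to 0.48.

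On the telomeric side Car6, the secreted carbonic anhydrase gene 42.8 kb away, had 1.07, 1.09 and 0.998 CPM in WT-OGD against 0.331, 0.361 and 0.492 CPM in KO-OGD (log2 fold change -1.41, adjusted p = 0.0544, not passing). After recovery it had 0 counts in the 3 WT libraries and 16 in KO, 10 and 6 of them in KO-recovery libraries 1 and 3 and none in 2. The lower end of the exact 95% interval of the ratio is 2.92-fold higher in KO (counting error only; 4.04 with a floor of 3 counts put in for the WT group; adjusted p = 0.0189 in the fit). Without those KO libraries no count is left, and the call was also lost without WT-recovery library 2 (0.0686) or 3 (0.0537) or KO-recovery library 1 (0.0710). Rere, a corepressor of the atrophin family, rose after recovery (0.38, adjusted p = 0.00559) and stood at 0.25 after OGD (adjusted p = 0.0837). Tnfrsf9, a costimulatory receptor of the TNF receptor superfamily, had 2.63, 1.83 and 0.888 CPM in WT-recovery and 0.446, 0.0816 and 0.107 CPM in KO-recovery (-2.88, adjusted p = 0.00133), against -0.19 after OGD. Gm13092, 1700045H11Rik, Rps15a-ps3, Errfi1 and Park7 passed in neither state.

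Among the members called in 1 state, Arhgef16, an exchange factor gene on the telomeric side, had the largest rise after OGD, from 0.0244, 0.0885 and 0.0208 CPM to 0.592, 0.361 and 0.465 CPM (log2 fold change 3.40, SE 0.55, adjusted p = 0.00142). After recovery it stood at 1.19 (adjusted p = 0.143). Megf6, an EGF-repeat gene, fell after OGD (-2.31, adjusted p = 0.00466), as did Mxra8, a membrane protein known as an entry receptor of alphaviruses, which Mxra8os overlaps (-1.20, adjusted p = 0.00775), a call lost without WT-OGD library 3 (0.0514) or KO-OGD library 2 (0.0534) and turned to 0.58 (0.477) with the astrocyte covariate. After recovery the secreted angiopoietin-like gene Angptl7 rose from 0.218 ± 0.0936 to 3.96 ± 1.66 CPM (SD, n = 3; 4.04, adjusted p = 8.11e-05). Igsf21, a synaptic adhesion gene, fell from 1.48, 2.08 and 2.00 CPM to 0.545, 0.245 and 0.214 CPM (-2.42, adjusted p = 0.00234), or -1.20 with the astrocyte covariate, where the call was lost (0.482). Plekhn1, which overlaps Mir7658, rose from 37.7, 28.0 and 28.8 CPM to 84.3, 85.4 and 52.7 CPM (1.24, adjusted p = 1.80e-04). The pseudogene Gm13204 rose by 1.74 (adjusted p = 0.0400), a call lost in 15 of the alternative settings.

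**Figure D5:**
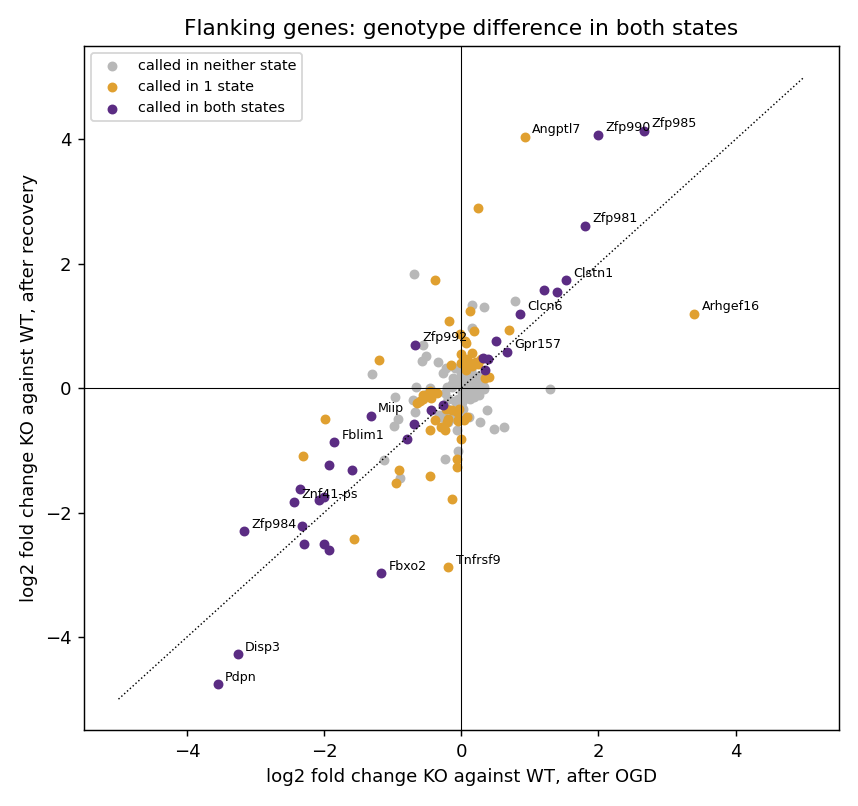
Log2 fold change of KO against WT after OGD (horizontal axis) and after recovery (vertical axis) for each tested flanking gene, coloured by whether it was called in both states, 1 or neither; the dotted line marks equal values and Car6 is left out because WT-recovery held no count of it. The genes called in both states lie in the lower left and upper right, except Zfp992 (-0.67 and 0.70).

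By function, the flanking genes moved with no single direction. The shares below stand against 7.49% of all genes called after OGD and 22.2% after recovery, and in lists of 3 to 10 genes 1 call moves a share widely. Of 10 metabolic enzymes 1 rose and 1 fell after OGD, and 4 rose and 3 fell after recovery (20% and 70%). Besides Nmnat1, Plod1 and H6pd, the retinal reductase gene Dhrs3 had 209, 154 and 167 CPM in WT-recovery and 351, 408 and 245 CPM in KO-recovery (log2 fold change 0.92, adjusted p = 9.41e-04). Pank4, of the pantothenate kinase family, rose by 0.47 (adjusted p = 0.00155). Pgd, an enzyme of the pentose phosphate route, fell by 0.51 (adjusted p = 0.0102), lost without KO-recovery library 1 (0.0569), and the NAD kinase gene Nadk by 0.49 (adjusted p = 3.62e-04). Acot7, Icmt and Srm passed in neither state.

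Of 6 listed genes for ubiquitin ligase parts and conjugating enzymes 3 fell and none rose after OGD (Fbxo44, Fbxo2 and Ube4b), and 2 rose and 4 fell after recovery (50% and 100% called). The list leaves out other members of this kind, among them Klhl21 (called in both states) and Spsb1 (called in neither). Its shares therefore hold for these 6 genes only. The 2 rises were Fbxo42 (0.44, adjusted p = 9.98e-04) and Fbxo6 (0.47, adjusted p = 0.00257), and the further fall was that of Ube2j2 (-0.35, adjusted p = 0.00830), lost without WT-recovery library 2 (0.0551) or KO-recovery libraries 1 and 3 (0.0712). Fbxo6, which binds sugar chains as Fbxo2 does, therefore went opposite to its neighbours Fbxo44 and Fbxo2, with 21.5, 22.4 and 24.3 CPM in WT-recovery and 32.3, 34.5 and 28.2 CPM in KO-recovery.

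Of 6 members of the TNF receptor superfamily none was called after OGD and 2 fell after recovery, Tnfrsf9 (above) and Tnfrsf1b, the second TNF receptor, which had 521, 454 and 409 CPM in WT and 310, 301 and 351 CPM in KO (-0.52, adjusted p = 0.0105). That call was lost when the 2 libraries with the highest mitochondrial share were left out (0.101) and without KO-recovery libraries 1 and 3 (0.0507). Tnfrsf8, Tnfrsf14, Tnfrsf4 and Tnfrsf18 did not pass. The list's share after recovery was thus 33.3%, near that of all genes. The peptidylarginine deiminase gene Padi2, whose enzyme converts arginine to citrulline, fell after recovery (-1.14, adjusted p = 8.24e-04) and overlaps Gm13031, which fell by 1.27. Of 8 surface, vesicle and transport genes 1 rose and 3 fell after OGD (Clstn1, then Pdpn, Fblim1 and the basement membrane gene Agrn), and 2 rose and 3 fell after recovery (50% and 62.5%). The rises after recovery were Clstn1 and the lysosome adaptor gene Plekhm2 (0.42, adjusted p = 0.00185), and the vesicle fusion gene Vamp3 joined the falls (-0.68, adjusted p = 5.17e-05). The Agrn call (-0.44, adjusted p = 0.0463) was lost in 18 alternative settings, reaching 0.338 without WT-OGD library 3, and its value was 0.30 (0.657) with the astrocyte covariate.

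Of 8 transcription regulators 3 fell and none rose after OGD, and 1 rose and 2 fell after recovery (37.5% each time). Beside Prdm16, the falls after OGD were Casz1 (-0.60, adjusted p = 0.0191) and the clock gene Per3 (-0.56, adjusted p = 0.0378), both lost in 8 or more alternative settings that included each OGD library left out. The further fall after recovery was Camta1 (-0.55, adjusted p = 1.78e-04), a calmodulin-binding factor, and the rise was Rere. Of 9 genes for RNA handling and translation 1 rose after OGD (Ints11), and 2 rose and 1 fell after recovery: Ints11, the exosome nuclease gene Exosc10 (0.56, adjusted p = 0.00184) and the ribosomal protein gene Rpl22 (-0.46, adjusted p = 0.00131). These are 11.1% and 33.3% of the list, near the shares of all genes.

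Of 6 genes of growth factor and kinase signalling none was called after OGD. After recovery the growth kinase gene Mtor rose (0.39, adjusted p = 0.00304) and Prkcz, an atypical protein kinase C, fell (-1.79, adjusted p = 0.00127), together 33.3%. Of 9 genes for mitochondrial proteins none was called after OGD and 1 (11.1%) fell after recovery, the mitoribosome gene Aurkaip1 (-0.52, adjusted p = 0.0185), lost without WT-recovery library 1 (0.0661) or KO-recovery library 1 or 3 (0.0801 and 0.0555), and at -0.17 without both of the latter (0.469). The succinate dehydrogenase gene Sdhb stood at 0.20 and 0.03, and the fusion gene Mfn2 at -0.04 and -0.24. Of 3 cell death genes, Dffa, an inhibitor of a DNA-cutting nuclease, rose after recovery (0.36, adjusted p = 0.0370), a call lost in 11 alternative settings, among them each recovery library left out except WT-recovery 1. Casp9 and Dffb passed in neither state.

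For 21 members the genotype difference changed between states (interaction at an adjusted p below 0.05), 9.77% of those tested against 5.25% of all genes, with 14 interaction terms above 0 and 7 below. The count was 7 without WT-recovery library 2, 10 without WT-OGD library 1 or 3, 11 without KO-recovery library 1 and 13 without KO-recovery libraries 1 and 3, WT-OGD library 2 or KO-OGD library 3. The smallest p-values after that of Fblim1 (0.98, adjusted p = 2.01e-04) and Zfp992 belonged to Necap2 and Plekhn1. Necap2, a factor of clathrin-mediated uptake, had 89.9, 89.2 and 93.4 CPM in WT-OGD against 91.2, 92.5 and 88.6 CPM in KO-OGD, but 104, 109 and 89.0 CPM in WT-recovery against 54.6, 56.5 and 60.3 CPM in KO-recovery. The genotypes overlapped after OGD and were apart after recovery (interaction -0.81, SE 0.11, adjusted p = 0.00109). Fblim1 differed in the same direction in both states with the smaller difference after recovery. Miip, an inhibitor of cell migration, did so too, with 20.5 ± 1.36 CPM in WT-OGD against 8.20 ± 0.547 CPM in KO-OGD, and 31.1 ± 0.964 and 22.9 ± 5.50 CPM after recovery (SD, n = 3). Its log2 fold changes were -1.32 and -0.45 (adjusted p = 4.38e-05 and 0.0308; interaction 0.88, adjusted p = 0.0175). The Miip call after recovery was lost without any single recovery library other than KO-recovery 1 and 2, or without WT-OGD library 2 or 3 (0.0514 to 0.0822). Its value was -0.26 without KO-recovery library 3, -0.19 without libraries 1 and 3 (0.313), and 0.03 with the astrocyte covariate (0.936). The interaction of Miip was lost without WT-OGD library 2 or 3, WT-recovery library 2 or KO-recovery library 1 (0.0529 to 0.0564). Those of Fblim1, Necap2 and Zfp992 were called in every alternative setting that gave a value.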

How the data were processed

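The data are gene-level counts from 12 libraries. The authors deposited raw counts of reads per gene, whole numbers that are not normalized, and reads were handled with HISAT2, featureCounts and the GRCm38 build per the submitters' processing notes. Versions, annotation and counting options (strand, reads that match several places) are not given in the sources used here, although the labels name a stranded kit. Of 55421 gene identifiers 55240 matched GENCODE M21 (GRCm38), which gave symbols and coordinates.

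A quasi-likelihood model was fitted with edgeR 4.0.16 in R 4.3.3 to all 12 libraries with 1 mean per group (TMM scaling, filterByExpr, robust estimation). Tests were adjusted by the Benjamini-Hochberg method over the 18842 genes tested, and an adjusted p below 0.05 is a call. Replicates had a common biological coefficient of variation of 0.119. A CPM is a count scaled to the TMM-adjusted library size, SE was taken as the size of the log2 fold change over the square root of F, and the interaction is the genotype difference after recovery less that after OGD. The scripts were tested on simulated counts. Exact intervals cover counting error only.

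The members and the gene lists were chosen with earlier results of these data known. Named members were, in each state, the 10 largest rises and falls that were called and did not overlap, those changed at least 2-fold in both states, the 8 nearest on each side, the members of the function lists and the 6 with the smallest interaction p-value. Others named (members called in both states or in the interaction, further genes of the zinc finger cluster, untested members) were added after their values were seen. Results of 2 members are counted with the others and not reported singly here. Shared sequence is the percent of 50-base words of a gene's transcripts found in any other gene.

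Alternatives were DESeq2 1.42.0, median-ratio (RLE) scaling, 3 other low-count filters, only the 6 libraries compared, a replicate block, libraries thinned to equal depth, leaving out the 2 libraries of highest mitochondrial share, an astrocyte-marker covariate, and each library left out in turn. Leaving out KO-recovery libraries 1 and 3 was added after seeing the data.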

Additional observations from a re-analysis of the deposited data

Results flagged for a closer look

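The genotype difference of 21 flanking genes changed between OGD and recovery by edgeR's quasi-likelihood test of the interaction (log2 fold change of KO against WT after recovery less that after OGD, adjusted p below 0.05). Interaction values above 0 were 0.98 for Fblim1, 1.37 for Zfp992, 1.13 for Plekhn1, 0.54 for Rsc1a1, which lies within the exons of Ddi2, and 0.88 for Miip. Further ones were 0.89 for 9430015G10Rik, 1.65 for Mxra8, 3.11 for Angptl7, 2.66 for Gm13067 and 0.87 for Zfp984. Perm1 had 0.70 and Gm37795 1.26. Car6 had 7.46, a fitted value that is no bound because WT-recovery held no count of it. Values below 0 were -0.81 for Necap2, -0.55 for Rpl22, -1.82 for Fbxo2, -1.19 for Gm13031, -2.69 for Tnfrsf9, -1.08 for Padi2, which overlaps Gm13031, and -0.45 for Vamp3. Of these 21, the genotypes differed in the same direction in both states for Fblim1, Zfp984, Miip and Fbxo2 and in opposite directions for Zfp992, and for the others the difference was called in at most 1 state. The part of depth and of the libraries that stood apart in these differences was not tested beyond the alternative settings. In those, the interaction call was kept in 9 of 22 for Vamp3, 11 of 22 for Perm1, 11 of 21 for Tnfrsf9 and 12 of 22 for Padi2. It was kept in 13 of 22 for Gm37795, Gm13031 and Zfp984, and in 13 of 20 for Gm13067. For Fblim1, Necap2 and Zfp992 it was kept in all 22.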

How the results depend on the processing

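Depth limits the recovery libraries most, and low genes such as Zfp981, Car6 and Gm13204 rest on few counts. After OGD the 15 members higher in KO became 8 when all libraries were thinned to 1 depth, 2 with the astrocyte-marker covariate, and 9 to 18 with 1 library left out. The 31 lower became 5 with the covariate and 19 to 32 with 1 library left out. The share of all genes called after OGD, 7.49% in the main fit, moved too. It was 4.12% thinned, where 188 members were tested, 0.196% with the covariate and 2.8% to 8.78% with 1 library left out. After recovery the 38 higher became 21 and the 43 lower 21 with the covariate, and 28 to 40 and 34 to 45 with 1 library left out. Over all genes the 22.2% called after recovery became 10.4% with the covariate and 13.2% to 26.6% with 1 library left out. The 32 members called in the same direction in both states became 21 thinned, 7 with the covariate and 21 to 31 with 1 library left out, the lowest without WT-OGD library 3. For all genes this share, 3.58% in the main fit, was 2.12% thinned, 0.17% with the covariate and 1.5% without WT-OGD library 3. The 21 interaction calls became 12 thinned, 13 without KO-recovery libraries 1 and 3, and 7 to 30 with 1 library left out (7 without WT-recovery library 2, 10 without WT-OGD library 1 or 3, 11 without KO-recovery library 1, and 13 without WT-OGD library 2 or KO-OGD library 3). The share of all genes called in the interaction under these settings is not given here. The interaction was not computed for the fit on only the 6 libraries compared. The members' median log2 fold change after OGD, 0.00, was 0.04 with DESeq2 and with RLE factors, 0.03 without a low-count filter and when the 2 libraries with the highest mitochondrial share were left out, 0.02 thinned, 0.06 with the covariate and -0.01 to 0.02 with 1 library left out. After recovery, -0.02 became 0.02 without a filter, 0.03 with the covariate and -0.05 to 0.01 with 1 library left out. Signs turned with the covariate for Fbxo2 after OGD (0.69, adjusted p = 0.574), Agrn after OGD (0.30, 0.657), Mxra8 after OGD (0.58, 0.477) and Miip after recovery (0.03, 0.936), and Car6 after recovery was 0.00 without KO-recovery libraries 1 and 3 (adjusted p = 1.0). The cause of these shifts was not tested. Replicate numbers did not pair the libraries (correlations of same-numbered deviations -0.115 to 0.156). With the replicate block 10 members were higher and 28 lower after OGD, where 6.26% of all genes were called, and 26 of the 32 calls in both states were kept. For single members, 5127 values kept their direction and side of the threshold, 388 lost the call, 54 gained it, and 137 uncalled values moved by more than their SE.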
